A study of Mus musculus with 30 samples.

Results

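The Dlk1-Dio3 region of mouse chromosome 12 is an imprinted domain, and 6 of its transcripts are described here: Meg3, Rian, Mirg, Dlk1, Rtl1 and Dio3. They are the 6 rows of these symbols among the 55426 genes of a count table. The members were selected on their counts in tendon at day 12, where Rian and Mirg had been seen to be lower in stimulated than in unstimulated samples, so the values of that comparison, and of the day 12 tendon samples against naive tendon, are a description with no test. In an imprinted domain a gene is read mainly from the chromosome inherited from 1 parent. Meg3, Rian and Mirg are noncoding RNAs read from the maternal chromosome. Rian carries small nucleolar RNAs and microRNAs in its introns, and Mirg is a host of microRNAs. Dlk1, Rtl1 and Dio3 are protein-coding genes read from the paternal chromosome. Dlk1 is a transmembrane protein with EGF repeats that is best known for restraining fat cell differentiation, Rtl1 derives from a retrotransposon, and Dio3 is the deiodinase that inactivates thyroid hormone. Meg3 and its neighbours are known as transcripts of skeletal muscle and its stem cells, and Dlk1 as a regulator of muscle growth.

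The study sequenced poly-A RNA of Achilles tendon and of calcaneus, the heel bone, in 30 samples that form 10 groups of 3. All mice carried the genotype label Acta1,Ai32, the naive and unstimulated ones included. Ai32 is an allele that gives channelrhodopsin, a light-gated ion channel, after Cre recombination, and Acta1 is the actin gene of skeletal muscle, so that light can make muscle contract and load the tendon and the bone. Each tissue had a naive group at day 0, an unstimulated and a stimulated group at day 5, and an unstimulated and a stimulated group at day 12. Some titles call the stimulated samples stimulated controls, and the treatment label was followed. The labels give no age or sex, nor whether replicates came from separate mice. The p-values therefore speak of the scatter among these libraries, and it is not known how much of that scatter is technical.

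Library totals were 24488997 to 44566322 counts in tendon and 19255983 to 35035536 counts in bone. Replicates 1 and 2 of unstimulated bone at day 5 differed by 2.64% (biological coefficient of variation of the pair), against 8.88% to 33.2% for every other pair of replicates, and were summed and counted as 1 library, so that group has n = 2. The tendon libraries held skeletal muscle RNA: 18 of 18 muscle fibre markers were detected, with 12.9% to 22.3% of counts, while 12 of 12 tendon fibroblast markers held 0.193% to 2.67%. In bone the muscle markers held 0.0178% to 4.33%, and the tendon fibroblast markers held 2.75% to 5.18%, more than in any tendon library. The tendon fibroblast list shares Col1a1 with the osteoblast list, so its share is not particular to tendon fibroblasts. Unstimulated tendon replicate 3 at day 5 stood apart from its group, with 0.266% of counts in Schwann cell markers against 0.00798% and 0.0118% in the other 2 libraries. In bulk samples like these, fewer cells of a type and less RNA per cell cannot be told apart.

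Levels are given as CPM, the count scaled by the library total after TMM adjustment (a correction for the makeup of each library), and a member passed the threshold where edgeR's quasi-likelihood test gave a Benjamini-Hochberg adjusted p below 0.05 over all genes tested. Each fold change is on the log2 scale with its standard error (SE). All 6 members passed the filter on low counts in every fit. In GRCm38 coordinates on chromosome 12, from one end of the domain to the other, Dlk1 lies at 109452823 to 109463336, Meg3 at 109541001 to 109571726, Rtl1 at 109589193 to 109600330, Rian at 109603940 to 109661716, Mirg at 109729764 to 109749460 and Dio3 at 110279068 to 110281097. Rtl1 is on the reverse strand and the other 5 members are on the forward strand. The strand setting of the counting is not given in the sources used here, so reads of Rtl1 and of the maternal transcript antisense to it cannot be told apart.

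The noncoding members read the same strand from Meg3 onwards, and the Meg3 start is the one with letters of known promoter elements. The 250 bases before its RefSeq start are at chr12:109540746-109540995 on the forward strand (GRCm38.p6). The capitals mark 2 motifs: a cAMP response element (CRE, TGACGTCA) at -57 and a TATA box (TATAAA) at -25 from that start.

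Meg3 promoter: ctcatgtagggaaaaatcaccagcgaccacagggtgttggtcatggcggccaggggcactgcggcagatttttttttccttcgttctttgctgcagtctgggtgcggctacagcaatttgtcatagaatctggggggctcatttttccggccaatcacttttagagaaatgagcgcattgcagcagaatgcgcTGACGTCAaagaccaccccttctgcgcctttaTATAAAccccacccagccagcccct

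Both strands were searched. The CRE letters are in 1.55% of 32851 RefSeq windows of this length and the TATA letters in 12.4%. A reverse-strand match to the TATA letters at -29 overlaps the one shown. The windows before the single Rian and Mirg starts and before a second Meg3 start hold neither motif, the Dio3 window holds a TATA box at -31, and the Dlk1 window holds the shorter CRE core TGACG at -106, which is in 17.8% of windows. A match is a run of letters, not a measured site.

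The microRNAs of the domain are its best known products. RefSeq's table lists 61 microRNA genes between Dlk1 and Dio3: 14 within Mirg, 9 of them over exons, 3 in Rian introns, 2 in Meg3 exons, 6 antisense to the Rtl1 exon and 1 on its sense strand, and 35 between the members. Their 113 mature arms have 104 distinct seeds, of which 9 are shared by more than 1 arm. Mature microRNAs have no poly-A tail, and all 67 microRNA rows and 23 snoRNA rows of the region were at 0 in every library, so the host transcripts are what these libraries read. Arms of 3 sources are shown with their seed (bases 2 to 8) in capitals: miR-433-3p, miR-127-3p and miR-136-5p lie antisense to Rtl1, miR-370-3p in a Rian intron, and the other 4 within Mirg.

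mmu-miR-433-3p: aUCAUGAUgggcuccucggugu

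mmu-miR-127-3p: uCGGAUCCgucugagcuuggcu

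mmu-miR-136-5p: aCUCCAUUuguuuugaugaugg

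mmu-miR-370-3p: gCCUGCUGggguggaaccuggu

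mmu-miR-134-5p: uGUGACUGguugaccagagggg

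mmu-miR-410-3p: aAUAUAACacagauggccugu

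mmu-miR-453: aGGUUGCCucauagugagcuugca

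mmu-miR-496a-5p: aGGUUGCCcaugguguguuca

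The last 2 arms, both from Mirg introns, share the seed GGUUGCC. The other 6 shown have seeds of their own.

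In tendon at day 12, the noncoding members were lower with stimulation and Dio3 was higher. Rian was at 63.0, 71.1 and 71.3 CPM in the stimulated libraries (68.5 ± 4.74, SD, n = 3) and at 154, 131 and 204 CPM in the unstimulated ones (163 ± 37.2, n = 3). The highest stimulated library was below the lowest unstimulated one, and the log2 fold change was -1.25 ± 0.18 (SE), a level 2.38-fold lower. Mirg was at 3.36, 3.12 and 3.47 CPM in stimulated libraries and at 8.81, 7.16 and 12.0 CPM in unstimulated ones. Its groups did not overlap either, with a log2 fold change of -1.49 ± 0.21, or 2.81-fold lower. Stimulated Mirg values lay closer together than those of any other tendon group (SD 0.179 CPM).

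Meg3, the first gene of the noncoding series, differed less. It was at 128, 195 and 161 CPM with stimulation and at 252, 197 and 272 CPM without. The groups were separated only by the gap between 195 and 197 CPM, and the log2 fold change was -0.57 ± 0.18. So the 3 noncoding RNAs were lower in every stimulated library, by an amount that was larger for Rian and Mirg than for Meg3. The set was chosen because Rian and Mirg were low in this comparison, so that order is only a description.

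Among the protein-coding members Dio3 went the other way. Dio3 was at 1.23, 0.870 and 2.79 CPM in stimulated tendon and at 0.614, 0.212 and 0.453 CPM in unstimulated tendon at day 12, from 5 to 91 counts per library. All 3 stimulated libraries were above all 3 unstimulated ones, with a log2 fold change of 1.92 ± 0.46, or 3.80-fold higher. Without stimulated replicate 3, the highest library, the difference was 1.26. Dlk1 was at 8.13, 6.16 and 5.18 CPM against 6.53, 5.72 and 6.93 CPM, and its groups overlapped (0.01 ± 0.26). Rtl1 was at 0.378, 0.435 and 1.29 CPM against 0.974, 0.763 and 1.04 CPM, also with overlap (-0.36 ± 0.40). Stimulated replicate 3 was the highest library of the 6 for both Dio3 and Rtl1, and without it the Rtl1 difference was -1.18. That library also had the highest share of muscle progenitor markers, 0.849% against 0.459% and 0.540% in the other stimulated libraries and 0.428% to 0.443% in the unstimulated ones.

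Across all genes, 0.345% passed the threshold in this comparison, and 14.7% had groups that did not overlap. Of the 6 members 4 did not overlap and 2, Rian and Mirg, passed the threshold, counts that follow from how the set was chosen. The median log2 fold change was -0.47 over the members, which were chosen on this comparison, and 0.01 over all genes. Of the 10 marker lists, that of muscle progenitors had shares that did not overlap, every stimulated library being above every unstimulated one. Over its 13 genes the median difference was 0.53 on the log2 scale and 0 passed in edgeR, with Myh8, a myosin of developing muscle, at 3.72 ± 0.86 (edgeR adjusted p = 0.0938), Chrng, the fetal acetylcholine receptor subunit, at 3.18 ± 0.82 (edgeR adjusted p = 0.115) and Mymx, a protein of myoblast fusion, at 1.58 ± 0.36 (edgeR adjusted p = 0.0873). Its part in the differences of the members was not tested. The shares of the other lists overlapped: tendon fibroblast markers held 0.193% to 0.638% of counts with stimulation and 0.252% to 0.623% without, interstitial fibroblast markers 0.0808% to 0.137% and 0.0793% to 0.125%, and muscle fibre markers 19% to 21.4% and 21% to 22.3%. With the score of tendon fibroblasts, interstitial fibroblasts or muscle fibres as a covariate, the Rian difference was between -1.26 and -1.22 and the Mirg difference between -1.5 and -1.48. The shares of these lists overlapped, so such a covariate could change little. No muscle progenitor score was fitted, and the part of cell makeup was not tested.

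**Figure D1:**
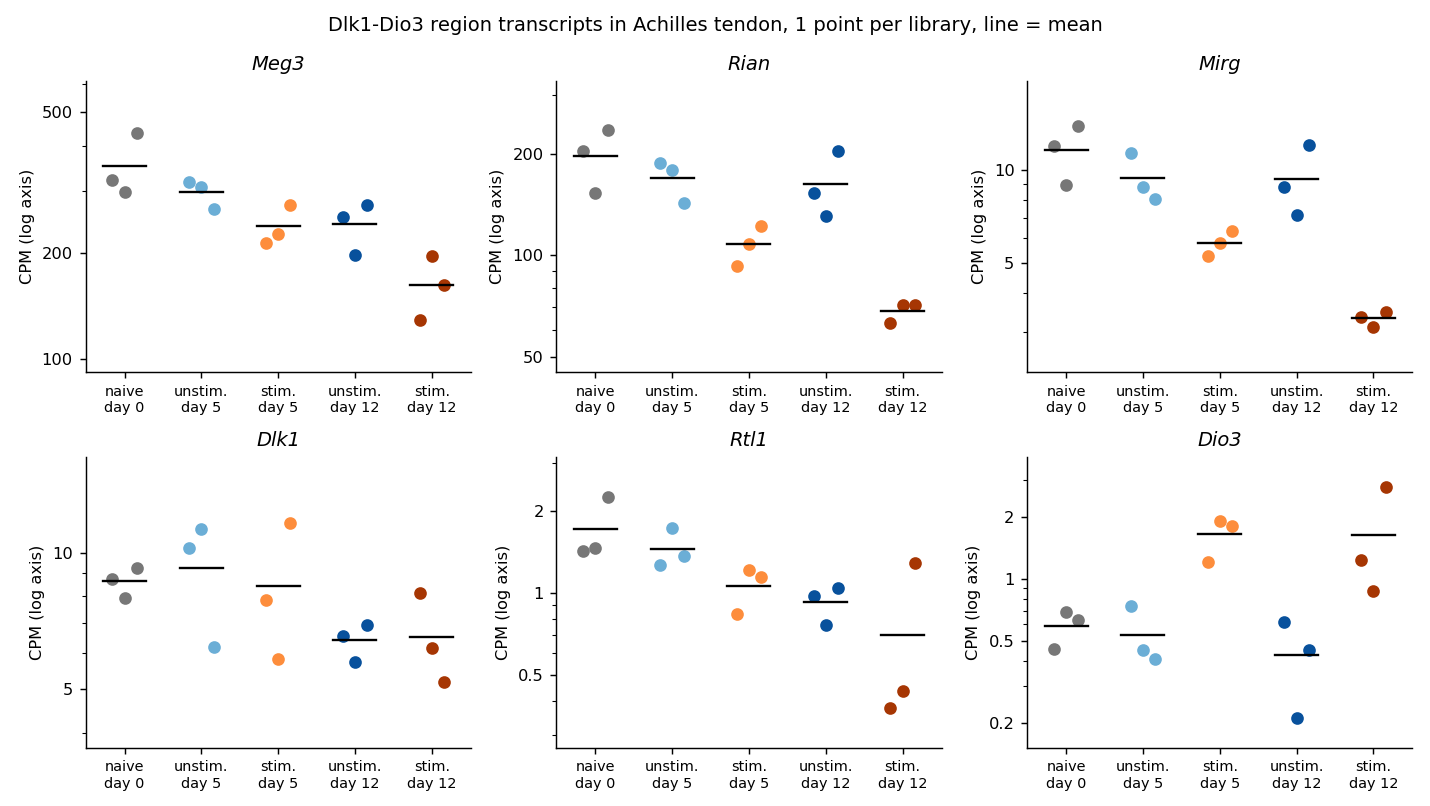
CPM (log axis) of the 6 members in each of the 15 tendon libraries, by group, with a line at the mean of 3 libraries. Rian and Mirg were lowest in the stimulated day 12 libraries (63.0 to 71.3 and 3.12 to 3.47 CPM), and the 6 stimulated libraries lie above the 9 others for Dio3 (0.870 CPM or more against 0.736 CPM or less).

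The members were chosen on tendon counts of day 12 and not of day 5, so at day 5 the same comparison was tested. Earlier results of these data were known when the tests were chosen, and the day 12 libraries entered the same fit. Rian and Mirg again had the lowest and Dio3 the highest fold change, and 0 of the 6 members passed the threshold, as against 0.0585% of all genes. At an unadjusted p below 0.05 there were 3 of 6 (Rian, Mirg and Dio3), and DESeq2 called 0. The groups did not overlap for 4 of 6 members and for 12.9% of all genes. Rian was at 93.2, 108 and 122 CPM in stimulated and at 188, 179 and 143 CPM in unstimulated libraries, with no overlap. The log2 fold change was -0.66 ± 0.18 (edgeR adjusted p = 0.304). Mirg, at 5.26, 5.78 and 6.36 CPM against 11.3, 8.78 and 8.02 CPM, was likewise lower in every stimulated library (-0.69 ± 0.20, edgeR adjusted p = 0.33). Meg3 overlapped, at 213, 227 and 273 CPM against 317, 307 and 265 CPM (-0.32 ± 0.18, edgeR adjusted p = 0.708).

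Dio3 was at 1.21, 1.91 and 1.81 CPM in stimulated tendon at day 5 and at 0.736, 0.449 and 0.407 CPM in unstimulated tendon. Every stimulated library was above every unstimulated one, the log2 fold change was 1.65 ± 0.44 and the edgeR adjusted p was 0.292. Rtl1, at 0.838, 1.21 and 1.14 CPM against 1.27, 1.73 and 1.37 CPM, gave -0.45 ± 0.37 (edgeR adjusted p = 0.851). For Dlk1 the stimulated libraries, at 7.85, 5.81 and 11.6 CPM, lay on both sides of the unstimulated ones at 10.2, 11.3 and 6.19 CPM (-0.12 ± 0.25, edgeR adjusted p = 0.962). Without unstimulated replicate 3, the library with the Schwann cell markers, the differences were -0.77 for Rian, -0.79 for Mirg and 1.48 for Dio3, and 0 of 6 passed. Of the marker lists, muscle fibre genes held 15.5% to 17% with and 14.5% to 21.5% without stimulation, and tendon fibroblast genes 0.416% to 1.03% and 0.377% to 1.15%. Schwann cell genes held 0.00602% to 0.00783% with stimulation and 0.00798% to 0.266% without, the only one of the 10 lists whose shares did not overlap. The median log2 fold change was -4.08 over the Schwann cell genes, -2.27 over cartilage genes and -1.66 over osteoblast genes, with 0 of each list past the threshold in edgeR. Unstimulated replicate 3 had the highest cartilage share of its group, 0.0601% against 0.0111% and 0.00762%, beside 0.00559% to 0.0129% with stimulation. Its osteoblast share was also the highest there, 0.864% against 0.326% and 0.266%, beside 0.282% to 0.722% with stimulation.

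**Figure D2:**
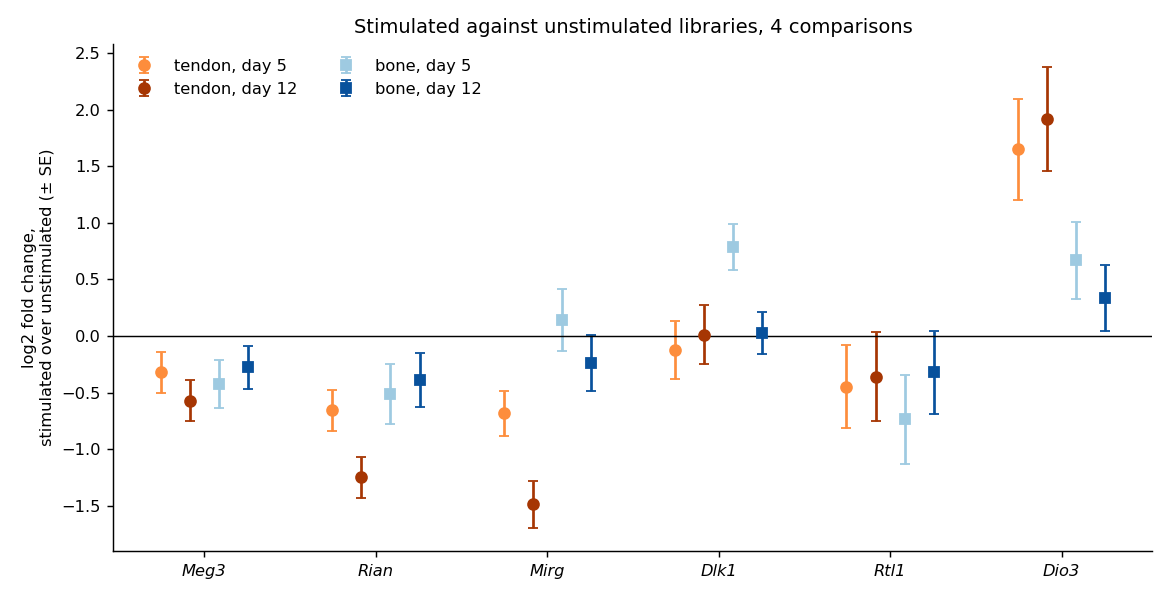
Log2 fold change of stimulated over unstimulated libraries for each member, with bars of 1 SE, in tendon (circles) and bone (squares) at days 5 and 12. Rian and Mirg lie farthest below 0 in tendon at day 12 (-1.25 and -1.49), the comparison on which the members were chosen. Dio3 lies above 0 in all 4 comparisons.

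Against naive tendon, the stimulated libraries at day 5 showed a fall of Rian and Mirg past the threshold. Naive tendon held 204, 153 and 236 CPM of Rian and 11.9, 8.91 and 13.8 CPM of Mirg. Each naive library was above each stimulated day 5 library for both genes. Rian fell by 0.87 ± 0.18 on the log2 scale, or 1.83-fold (edgeR adjusted p = 0.0302), and Mirg by 0.99 ± 0.20, or 1.98-fold (edgeR adjusted p = 0.0258), so that 2 of 6 members passed, beside 2.29% of all genes. Dio3, at 0.455, 0.693 and 0.630 CPM in naive tendon, gave 1.47 ± 0.42 (edgeR adjusted p = 0.0859), and Meg3, at 322, 297 and 438 CPM, gave -0.57 ± 0.18 (edgeR adjusted p = 0.116), and neither overlapped. DESeq2 called 4 members, these 2 as well. Rtl1 was at -0.68 ± 0.36 (edgeR adjusted p = 0.313) and Dlk1 at -0.03 ± 0.25 (edgeR adjusted p = 0.96).

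Both calls rested on few libraries. Neither held without naive replicate 1, naive replicate 3, stimulated replicate 1 or stimulated replicate 2, where the adjusted p-values of edgeR were 0.0748 to 0.163 for Rian and 0.0618 to 0.142 for Mirg and the fold changes -0.87 to -0.73 and -0.98 to -0.84. Tendon fibroblast markers held 1.12% to 2.67% of counts in naive tendon and 0.416% to 1.03% in stimulated tendon at day 5, and muscle progenitor markers 0.442% to 0.487% and 0.496% to 0.533%. Osteoblast markers held 0.828% to 2.19% and 0.282% to 0.722%, and cartilage markers 0.0187% to 0.043% and 0.00559% to 0.0129%. Schwann cell markers held 0.0115% to 0.111% and 0.00602% to 0.00783%. The shares of these lists did not overlap, and their part was not tested. With the tendon fibroblast score as a covariate, a setting chosen after seeing the data, Rian was at -0.62 (edgeR adjusted p = 0.436) and Mirg at -0.77 (edgeR adjusted p = 0.371). The tendon fibroblast shares did not overlap between these groups, so score and group cannot be told apart in that fit.

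Unstimulated tendon at day 5 showed no such difference from naive: 0 of 6 members passed in edgeR, against 0.0351% of all genes, with 0 at an unadjusted p below 0.05 and 0 in DESeq2. All 6 members overlapped, while 15.6% of all genes did not. Its largest log2 fold change was that of Mirg, -0.30 ± 0.19. At day 12, described without a test, unstimulated tendon was at -0.28 ± 0.18 for Rian and -0.30 ± 0.19 for Mirg against naive, with overlap for both. Meg3 (-0.55 ± 0.18), Dlk1 (-0.43 ± 0.26) and Rtl1 (-0.88 ± 0.37) were lower with no overlap. So 3 of 6 members did not overlap, as against 47.7% of all genes, and 1 of 6, Meg3, passed the threshold, as against 18.8%. Stimulated tendon at day 12 was the farthest from naive: -1.53 ± 0.18 for Rian, -1.80 ± 0.21 for Mirg, -1.12 ± 0.18 for Meg3, -1.24 ± 0.38 for Rtl1 and 1.48 ± 0.43 for Dio3, with 5 of 6 not overlapping, as against 41.6% of all genes, and 5 of 6 past the threshold, as against 24.4%. Of the markers, 6 of 12 tendon fibroblast genes and 6 of 10 interstitial fibroblast genes fell past the threshold in this comparison. So did 6 of 11 osteoblast, 5 of 9 cartilage and 5 of 7 marrow genes measured. Of 18 muscle fibre genes 12 rose and 1 fell, and of 13 muscle progenitor genes 7 rose and 1 fell. The tendon fibroblast share was 1.12% to 2.67% in naive tendon, 0.252% to 0.623% in unstimulated and 0.193% to 0.638% in stimulated tendon at day 12. The part of these cells was not tested. These comparisons share the naive libraries, and those of day 12 use libraries that chose the members. The day 12 counts of members therefore describe the set, and nothing is read from the shares of all genes beside them.

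The count of one member over another within a library does not depend on the scaling. Rian counts were 63.5%, 51.5% and 53.8% of Meg3 counts in naive tendon and 59.3%, 58.4% and 54.0% in unstimulated tendon at day 5. In stimulated tendon at day 5 they were 43.8%, 47.8% and 44.8%, below all 6 of the former. The exact two-sided permutation test of stimulated against unstimulated gave p = 0.1, the smallest that 3 against 3 libraries allow, and 0.273 after adjustment over 30 such tests. At day 12 the ratio was 49.0%, 36.4% and 44.1% with stimulation and 61.0%, 66.5% and 74.9% without. Rian and Mirg were picked for being low in that comparison, so its ratios to Meg3 are only described.

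Mirg followed, at 2.45% ± 0.113 of Meg3 counts in stimulated and 3.15% ± 0.367 in unstimulated tendon at day 5 (SD, n = 3; exact permutation p = 0.1, adjusted 0.273), and at 2.12% ± 0.508 and 3.84% ± 0.486 at day 12. In both comparisons each stimulated library was below each unstimulated one, that of day 12 being only a description. Dio3 counts were 0.690% ± 0.140 of Meg3 counts in stimulated and 0.177% ± 0.0477 in unstimulated tendon at day 5 (n = 3; exact permutation p = 0.1, adjusted 0.273). In bone at day 5 the Mirg ratio lay the other way, with a mean of 2.84% in stimulated and 1.94% in unstimulated libraries and no overlap (exact permutation p = 0.2, the smallest that 3 against 2 allow, adjusted 0.333). The Rian ratio there overlapped, with means of 37% and 39%, and the Dio3 ratio was 0.677% against 0.320% with no overlap (exact permutation p = 0.2, adjusted 0.333).

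**Figure D3:**
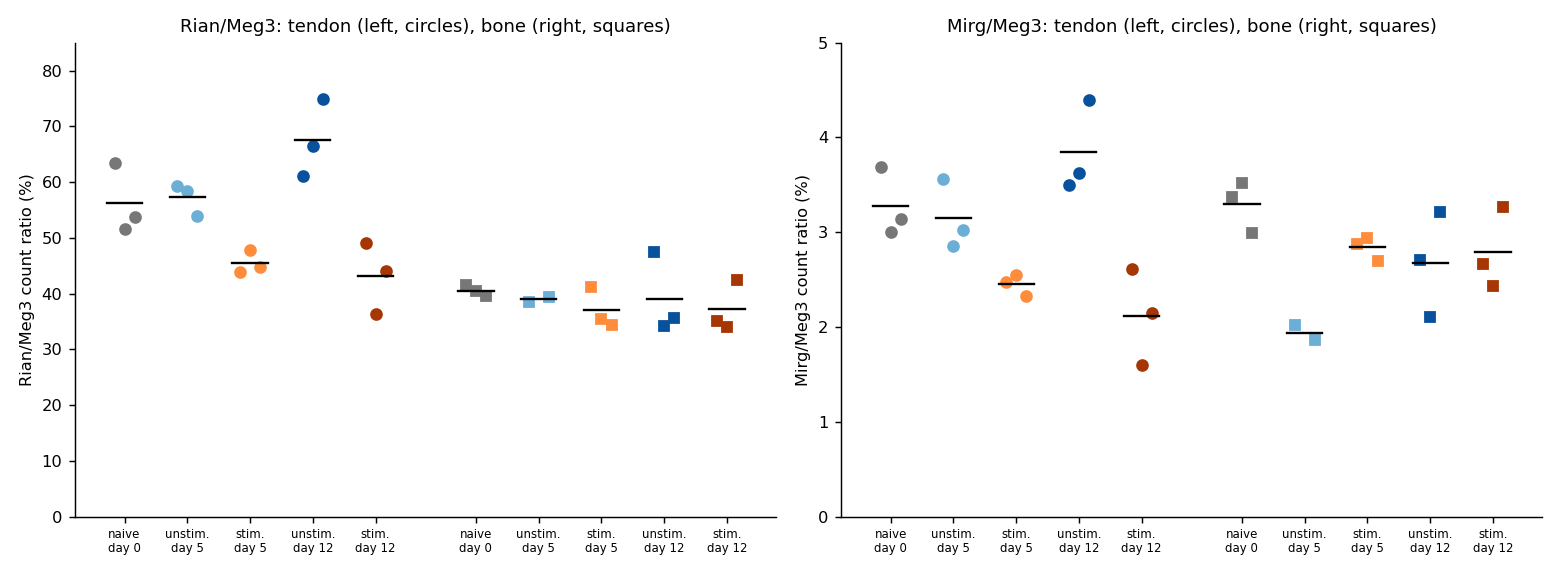
Rian counts (left) and Mirg counts (right) as a percentage of Meg3 counts in each of 29 libraries, with a line at the group mean. In tendon the stimulated libraries (36.4% to 49.0% for Rian) lie below naive and unstimulated ones (51.5% to 74.9%), while bone libraries lie between 34.0% and 47.4%. The tendon libraries of day 12 chose the members.

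In bone no member passed between stimulated and unstimulated libraries. At day 12, 0 of 6 members passed in edgeR (0.0371% of all genes did), with 0 at an unadjusted p below 0.05 and 0 in DESeq2. All 6 overlapped, while 16.2% of all genes did not. Rian was at 49.9, 60.1 and 57.7 CPM in stimulated and at 101, 54.4 and 64.1 CPM in unstimulated bone (-0.39 ± 0.24, edgeR adjusted p = 0.486). Mirg was at 3.80, 4.30 and 4.44 CPM against 5.79, 3.36 and 5.78 CPM (-0.24 ± 0.25, edgeR adjusted p = 0.698), and Dio3 at 1.75, 1.81 and 1.32 CPM against 1.18, 1.3 and 1.39 CPM (0.33 ± 0.29, edgeR adjusted p = 0.636). The 95% interval of the Mirg difference ran from -0.73 to 0.24 and that of Rian from -0.86 to 0.08. The Rian difference was -0.07 without unstimulated replicate 1, the highest library, and -0.56 without unstimulated replicate 2, and that of Mirg -0.11 and -0.47. Interstitial fibroblast markers held 0.413% to 0.543% of counts in stimulated and 0.678% to 0.708% in unstimulated bone at day 12, and adipocyte markers 0.218% to 0.251% and 0.282% to 0.364%.

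At day 5 in bone 0 of 6 members and 0% of all genes passed in edgeR, with 1 member at an unadjusted p below 0.05 and 0 in DESeq2. That member was Dlk1, at 8.80, 10.3 and 8.24 CPM in stimulated and at 5.81 and 4.69 CPM in unstimulated bone, the first of these the summed pair. The stimulated libraries were all above the unstimulated ones (0.79 ± 0.20, edgeR adjusted p = 0.47). Rian was at 55.3, 61.4 and 51.2 CPM against 66.5 and 93.0 CPM, with no overlap (-0.51 ± 0.26, edgeR adjusted p = 0.649), and at -0.22 without unstimulated replicate 3. Dio3, at 1.26, 0.889 and 0.860 CPM against 0.822 and 0.387 CPM, was higher in every stimulated library (0.67 ± 0.34, edgeR adjusted p = 0.644), so that Rian and Dio3 lay on the same sides as in tendon at day 5. Rtl1 was lower in every stimulated library (-0.74 ± 0.39, edgeR adjusted p = 0.652). Mirg, at 3.87, 5.09 and 4.03 CPM against 3.50 and 4.38 CPM, overlapped (0.14 ± 0.28, edgeR adjusted p = 0.909). In all, 4 of 6 members had groups that did not overlap, as against 28.7% of all genes, with 2 unstimulated libraries. Interstitial fibroblast markers held 0.400% to 0.449% of counts in stimulated and 0.469% to 0.477% in unstimulated libraries, osteoblast markers 4.56% to 5.0% and 3.38% to 4.33%, and adipocyte markers 0.220% to 0.316% and 0.184% to 0.186%. Their part was not tested.

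Tests of the differences between these effects passed for no member. The day 5 effect in tendon minus that in bone was -0.80 ± 0.35 for Mirg (edgeR adjusted p = 0.732), -0.89 ± 0.35 for Dlk1 (edgeR adjusted p = 0.68) and -0.12 ± 0.34 for Rian (edgeR adjusted p = 0.989), with 2 of 6 at an unadjusted p below 0.05, 0 in DESeq2 and 0% of genes called. The change of the bone effect from day 5 to day 12 was -0.76 ± 0.27 for Dlk1 (edgeR adjusted p = 0.437), with 0 of 6 past the threshold, 1 at an unadjusted p below 0.05, 0 in DESeq2 and 0% of genes called. The tendon effect at day 12 was not set against the others in a test, since it chose the members.

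Against naive bone, Dlk1, Meg3 and Dio3 rose in some groups. Dlk1 was at 4.22, 3.75 and 4.07 CPM in naive bone (4.01 ± 0.243, SD, n = 3) and at 9.11 ± 1.07 CPM (n = 3) in stimulated bone at day 5, every stimulated library above every naive one. It rose by 1.18 ± 0.19 on the log2 scale, or 2.27-fold (edgeR adjusted p = 0.0311), the 1 member of 6 that passed there, beside 0.228% of all genes. The call did not hold without naive replicate 2 or 3 or without stimulated replicate 1, 2 or 3 (edgeR adjusted p = 0.0725 to 0.17, with fold changes of 1.08 to 1.25). Interstitial fibroblast markers held 0.400% to 0.449% of counts in these stimulated libraries and 0.185% to 0.265% in the naive ones, and with their score as a covariate Dlk1 was at 1.15 (edgeR adjusted p = 0.576). Those shares did not overlap, so score and group cannot be told apart in that fit. Dlk1 in the other bone groups had means of 5.25 to 5.56 CPM.

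Dio3 was at 0.426, 0.609 and 0.301 CPM in naive bone and at 1.18 CPM or more in each of the 6 bone libraries of day 12. It rose by 1.52 ± 0.33 in unstimulated bone at day 12 (edgeR adjusted p = 0.00821) and by 1.85 ± 0.33 in stimulated bone (edgeR adjusted p = 0.0126), with no overlap in either. Meg3 was at 148, 101 and 92.4 CPM in naive bone and at 213, 159 and 180 CPM in unstimulated bone at day 12, where it rose by 0.69 ± 0.19 (edgeR adjusted p = 0.025), a comparison in which the groups are separated by 148 and 159 CPM. Thus 2 of 6 members passed in unstimulated bone at day 12, beside 21.8% of all genes, and 1 of 6 in stimulated bone, beside 4.54%. Rian was at 0.66 ± 0.24 in the former (edgeR adjusted p = 0.0723). In unstimulated bone at day 5, 0 of 6 passed in edgeR and 1, Meg3 at 0.84 ± 0.21 (edgeR adjusted p = 0.12), in DESeq2, with 2 at an unadjusted p below 0.05 and 0.435% of genes called.

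These rises stand beside shares of other cells. The 10 interstitial fibroblast markers, all detected, held 0.185% to 0.265% of counts in naive bone, 0.678% to 0.708% in unstimulated bone at day 12 and 0.413% to 0.543% in stimulated bone at day 12. Marrow markers, 13 of 13 detected, held 1.86% to 4.87% in naive bone and 0.452% to 0.868% in unstimulated bone at day 12. With the interstitial fibroblast score as a covariate, Dio3 in unstimulated bone at day 12 was at 1.45 (edgeR adjusted p = 0.836) and Meg3 at -0.02 (edgeR adjusted p = 0.995). Dio3 in stimulated bone at day 12 was at 1.80 with this score (edgeR adjusted p = 0.317). The shares of this list did not overlap between naive and day 12 bone, so score and group cannot be told apart in these fits. Dio3 in stimulated bone at day 12 also lost its call without stimulated replicate 2 (1.77, edgeR adjusted p = 0.0504). The Meg3 call did not hold without naive replicate 2 or 3 or without unstimulated replicate 1 or 3 (edgeR adjusted p = 0.0575 to 0.101).

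**Figure D4:**
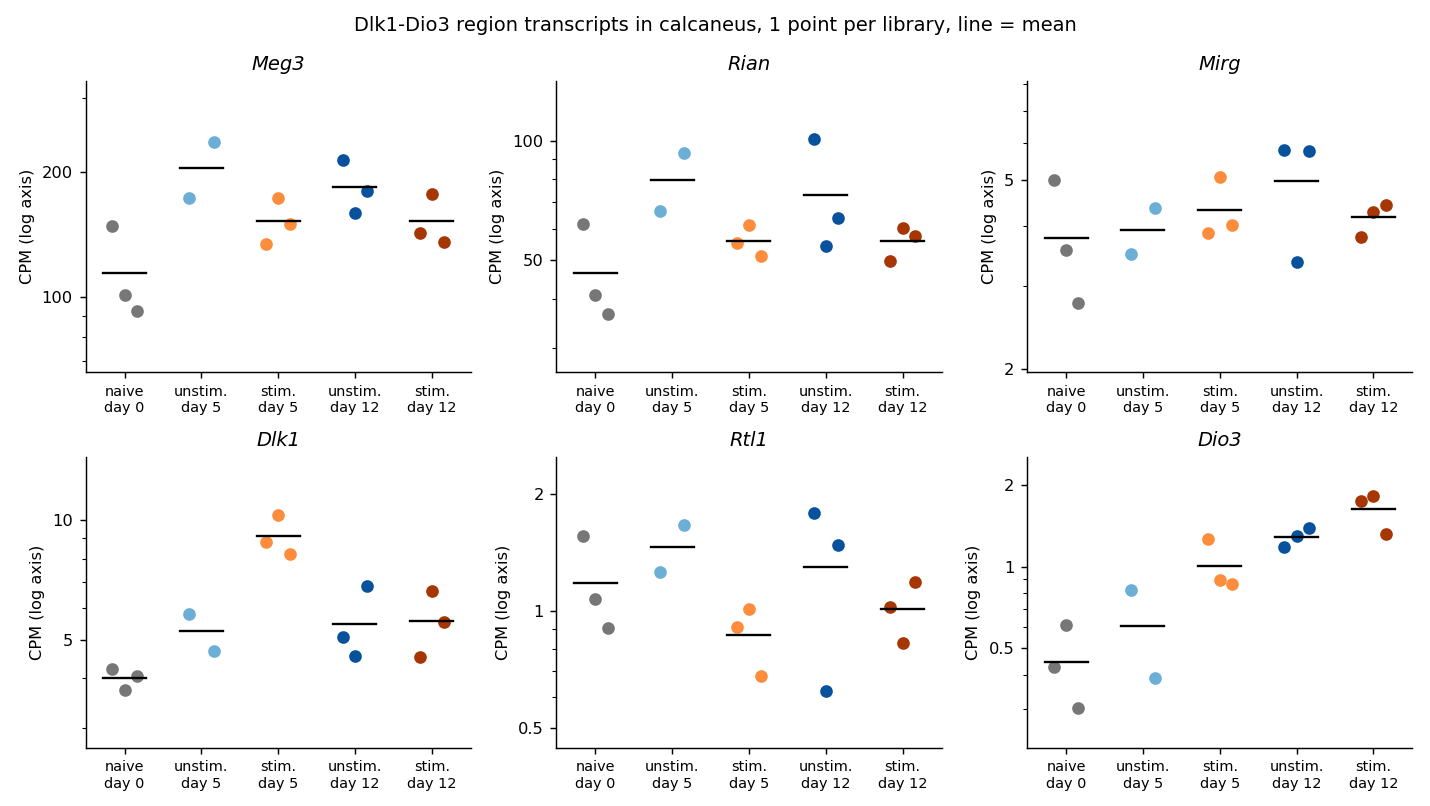
CPM (log axis) of the 6 members in each of the 14 bone libraries, by group, with a line at the group mean and 2 libraries in the unstimulated day 5 group. Dlk1 is highest in stimulated bone at day 5 (8.24 to 10.3 CPM), and Dio3 is at 1.18 CPM or more in the day 12 libraries.

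All 6 members were higher in naive tendon than in naive bone when the libraries of both tissues were scaled together, and so were 33.3% of all genes, with 68.4% called in either direction. On this scale Rian was at 257, 193 and 299 CPM in tendon and 48.7, 32.3 and 28.1 CPM in bone, 6.85-fold higher (2.78 ± 0.24, edgeR adjusted p = 1.08e-09). Meg3 was 4.97-fold higher, at 405, 375 and 555 CPM against 117, 80.0 and 71.2 CPM (2.31 ± 0.21, edgeR adjusted p = 1.52e-09). Mirg was 4.86-fold higher (2.28 ± 0.24, edgeR adjusted p = 1.65e-08) and Dlk1 3.46-fold higher (1.79 ± 0.24, edgeR adjusted p = 7.65e-07).

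Rtl1 (1.20 ± 0.37, edgeR adjusted p = 0.0059) and Dio3 (1.08 ± 0.43, edgeR adjusted p = 0.0307) differed least. No member overlapped, nor did 74.2% of all genes. The Dio3 call ended without tendon replicate 2 or 3 or without bone replicate 1 or 3 (edgeR adjusted p = 0.0665 to 0.114). Muscle fibre markers held 12.9% to 17% of counts in the naive tendon libraries and 0.0178% to 1.94% in the naive bone ones, and marrow markers 0.0113% to 0.0174% and 1.86% to 4.87%. The part of these cells in the difference was not tested.

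Per kilobase of exon, which allows genes to be compared, Meg3 led in both tissues. On the joint scale naive tendon held 24.6 ± 5.33 CPM per kb of Meg3, 13.7 ± 2.92 of Rian, 2.0 ± 0.427 of Mirg, 1.93 ± 0.153 of Dlk1, 0.369 ± 0.0773 of Dio3 and 0.341 ± 0.0940 of Rtl1 (SD, n = 3). Mirg and Dlk1 did not differ beyond their spread, nor did Dio3 and Rtl1, and the steps between the other neighbours in this order were larger than the SDs. In naive bone the order was Meg3 (4.95 ± 1.35), Rian (2.0 ± 0.597), Dlk1 (0.556 ± 0.0331), Mirg (0.407 ± 0.127), Dio3 (0.172 ± 0.0618) and Rtl1 (0.146 ± 0.0435). The last pair lay within its spread. Over the 10 groups Meg3 ran from 24.6 in naive tendon through 20.8 ± 2.02 in unstimulated tendon at day 5 to 11.4 ± 2.37 in stimulated tendon at day 12, and bone groups lay from 4.95 to 8.85, below every tendon group mean.

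**Figure D5:**
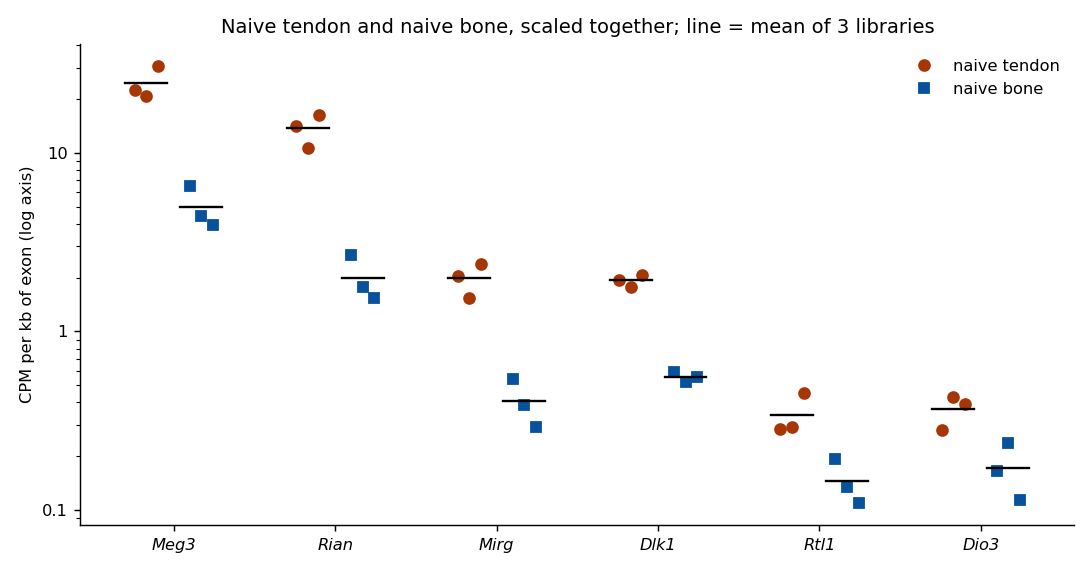
CPM per kb of exon (log axis) of the 6 members in 3 naive tendon (circles) and 3 naive bone (squares) libraries scaled together, with lines at the means. Meg3 is highest in both tissues (24.6 and 4.95), and for each member the tendon libraries lie above the bone libraries.

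The tendon libraries also differed among themselves by unequal amounts from gene to gene. From the lowest to the highest of 15 tendon libraries, Dio3 spanned 13.2-fold, Rtl1 5.97-fold, Mirg 4.42-fold, Rian 3.74-fold, Meg3 3.41-fold and Dlk1 2.24-fold. Within groups the SD of log2 CPM was 0.24 to 0.26 for the 3 noncoding RNAs and 0.55 for Dio3, which had 5 to 91 counts per tendon library. Over these libraries Rian had a Pearson correlation of log2 CPM of 0.991 with Mirg, 0.91 with Meg3, 0.741 with Rtl1, 0.437 with Dlk1 and -0.619 with Dio3. Samples of all groups enter these values, which share library and scaling and are given with no p. They include the day 12 tendon libraries on which Rian and Mirg were seen to be low, which favours a high value for that pair. In 14 bone libraries Meg3 had a correlation of 0.928 with Rian, 0.657 with Mirg and 0.292 with Dlk1.

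Among 12539 genes outside the region and with a mean of at least 1 CPM, those most like Rian over the tendon libraries included Ift20 and Golt1b (0.889 each), Pofut1 (0.881) and Lrrc59 (0.878). All 4 were less like Rian than Mirg was. The day 12 libraries on which Rian and Mirg were chosen enter these values, so nothing is read from that order. Golt1b is a Golgi transport protein, Pofut1 adds O-linked fucose to EGF repeats and Ift20 is an intraflagellar transport protein. Against Meg3 in bone, among 13989 genes, the 5 most alike were Cadm3 (0.95), Tmod2 (0.939), Tnxb (0.938), Mfap5 (0.937) and Sema3c (0.925). Tnxb and Mfap5 are matrix proteins of connective tissue.

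The span from Dlk1 to Dio3 holds 116 rows of the table, of which 100 were at 0 in all libraries. Besides the members, 2 had a mean of at least 1 CPM in a tissue: Gm3379, a processed pseudogene, and Dio3os, the noncoding RNA divergent from Dio3. With stimulation Dio3os moved in the direction of Dio3. It was at 1.78, 0.999 and 1.76 CPM in stimulated tendon at day 5, at 0.859, 0.795 and 0.698 CPM in unstimulated tendon, and at 0.498, 0.520 and 0.525 CPM in naive tendon. All stimulated libraries were above the others. Against naive it rose by 1.55 ± 0.34 (edgeR adjusted p = 0.0354), and against unstimulated it was at 0.95 ± 0.34 (edgeR adjusted p = 0.464).

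At day 12 the Dio3os levels were 1.18, 1.27 and 2.12 CPM in stimulated and 0.614, 0.297 and 0.870 CPM in unstimulated tendon (1.35 ± 0.35). In bone Dio3os rose against naive at day 12, by 1.36 ± 0.32 in unstimulated (edgeR adjusted p = 0.0118) and 1.52 ± 0.32 in stimulated libraries (edgeR adjusted p = 0.0252). In naive tendon against naive bone Dio3os was at -0.34 ± 0.36 (edgeR adjusted p = 0.405), while Dio3 was higher in tendon. Gm3379 gave 0.13 ± 0.15 with stimulation in tendon at day 5 (edgeR adjusted p = 0.92).

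Genes tied to the members by position or pathway were read from 6 lists: 18 neighbours outside the domain, 18 regulators of imprinted domains, 19 genes of Notch signalling, which Dlk1 is thought to modulate, 13 genes of thyroid hormone handling, 25 other imprinted genes and 13 other retrotransposon-derived genes. In stimulated against unstimulated tendon at day 5, 0 of the 94 measured passed in edgeR, with 9 at an unadjusted p below 0.05, and DESeq2 was not read for these lists. The medians of the 6 lists were between -0.19 and 0.04, beside -0.003 over all genes. At day 12 only Hr, a thyroid hormone-responsive corepressor, passed, and it rose by 0.85 ± 0.15 (edgeR adjusted p = 0.0234). Thrb, a thyroid hormone receptor, was at -0.32 ± 0.15 (edgeR adjusted p = 0.466).

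None of the 18 neighbours and none of the 23 measured other imprinted genes passed in tendon at day 12 in edgeR, with 5 and 4 at an unadjusted p below 0.05. Their medians were -0.05 and 0.18, beside -0.47 for the members. The members were chosen on this comparison, so nothing is read from that contrast. Peg10, an imprinted gene that is also derived from a retrotransposon, was at 1.46 ± 0.44 (edgeR adjusted p = 0.192), and H19, another maternally read noncoding RNA, at 0.49 ± 0.22 (edgeR adjusted p = 0.431). In stimulated tendon at day 5 against naive, 3 of the 94 passed, near the 2.29% of all genes that did. Ankrd9, a neighbour, rose by 1.02 ± 0.18 (edgeR adjusted p = 0.0179), Tet1, which oxidises methylated cytosine, fell by 0.87 ± 0.19 (edgeR adjusted p = 0.0324), and Arc, a capsid-like protein, fell by 2.09 ± 0.46 (edgeR adjusted p = 0.0357).

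In unstimulated bone at day 12 against naive, 38 of 97 listed genes passed, beside 21.8% of all genes. Of 12 measured thyroid hormone genes 7 rose and 2 fell, with a list median of 0.72 beside 0.03 over all genes. Klf9, a thyroid hormone target, rose by 1.0 ± 0.15 (edgeR adjusted p = 0.00179), and Thrb by 0.54 ± 0.12 (edgeR adjusted p = 0.00808). Of 18 regulators 2 rose and 8 fell, among them Ezh2, the methyltransferase of Polycomb, by 1.18 ± 0.16 (edgeR adjusted p = 0.0014), and Dnmt1, the maintenance DNA methyltransferase, by 1.06 ± 0.15 (edgeR adjusted p = 0.00168). Of 23 other imprinted genes 4 rose and 1 fell, a share near that of all genes. The risers included Dcn, the matrix protein decorin (1.35 ± 0.18, edgeR adjusted p = 0.00141), and Ndn (0.98 ± 0.19, edgeR adjusted p = 0.00445). The fibroblast and marrow shares given above for these libraries moved with these lists too, and their part was not tested.

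Between the naive tissues, 16 of 23 other imprinted genes were higher in tendon and 4 were lower, with a median of 1.15 beside -0.06 over all genes and 2.04 over the 6 members. H19 was higher by 4.56 ± 0.46 (edgeR adjusted p = 8.19e-09) and Igf2r by 1.39 ± 0.11 (edgeR adjusted p = 2.36e-10). Of the 18 neighbours outside the domain 10 were higher and 2 lower, near the 68.4% of all genes called, with a median of 0.29.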

How the data were processed

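The 30 tissue samples were read by poly-A RNA sequencing after PureLink extraction, per the labels' protocols. The submitters' processing notes name cutadapt 2.3, FastQC 0.11.8, STAR 2.7.8a, RSEM 1.3.3, MultiQC 1.7 and the build GRCm38. Not given in the sources used here: annotation release and strand setting. The values that the authors deposited are expected counts from RSEM, an estimate that shares reads out between near-identical or overlapping genes. They were rounded to whole numbers before testing. Of 55426 gene IDs, 55154 (99.5%) were found in GENCODE M21, the source of coordinates and exon lengths. Promoter and microRNA sequences are RefSeq's (GRCm38.p6), and Rtl1 has no promoter entry.

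Samples were grouped by their labels. The tool was edgeR 4.0.16 (R 4.3.3). Genes were kept by filterByExpr at its settings of 10 (count) and 15 (total), and libraries scaled by TMM. All libraries of a tissue, or of both tissues where these were compared, entered 1 robust quasi-likelihood fit, with Benjamini-Hochberg adjustment over all 17108 genes in tendon, 18851 in bone or 19845 in both, at a threshold of 0.05. Log2 CPM for correlations and scores used a prior count of 2. Ratios of counts were compared by exact permutation tests (SciPy). A marker score is the mean log2 CPM of its list. The members, gene lists and tests were chosen with earlier results of these data known. Of each list, up to 4 genes with the smallest adjusted p in a comparison could be named, and of other genes the 5 most like Rian in tendon or Meg3 in bone; some genes that this rule names are not reported here. Alternatives were DESeq2 1.42.0, its size factors, no count filter, only the libraries compared, the replicate number as a block, a muscle fibre score as a covariate, and leaving out each library; fibroblast scores as covariates were chosen after seeing the data. Counts of the day 5 tendon comparison were simulated (16836 genes), with 100 genes changed by 1 and 100 changed by 2 on the log2 scale. The test recovered 75% of the former and 95% of the latter, and 4.49% of calls were false. The real comparison called 10 genes, so its adjusted threshold was harder to pass. The simulated rates are therefore not the power of the real day 5 test. The changed genes were drawn from those with a mean of at least 1 CPM, and all groups otherwise had the unstimulated day 5 mean. Dio3, with a mean of 0.964 CPM in tendon, lies below that floor, so these rates do not cover it.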

Additional observations from a re-analysis of the deposited data

Results flagged for a closer look

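Between naive and unstimulated samples at day 12, 2 members went opposite ways in the 2 tissues, each with no overlap between the groups. In tendon 47.7% of all genes did not overlap in that comparison, and the share in bone is not given here. The members were searched for this pattern, and the tendon libraries of day 12 chose the members. Meg3 was at -0.55 ± 0.18 in tendon and at 0.69 ± 0.19 in bone on the log2 scale. Dlk1 was at -0.43 ± 0.26 in tendon and at 0.44 ± 0.19 in bone. The difference between the tissues was not tested. Tendon fibroblast markers went from 1.12% to 2.67% of counts in naive tendon to 0.252% to 0.623% in unstimulated tendon at day 12, and interstitial fibroblast markers from 0.185% to 0.265% in naive bone to 0.678% to 0.708% in unstimulated bone at day 12. Their part in these values was not tested. With the tendon fibroblast score as a covariate Meg3 was at -0.04 in tendon and 0.11 in bone. In bone the tendon fibroblast list held 4.77% to 5.18% of counts in naive and 3.53% to 3.86% in unstimulated libraries at day 12. Of its 12 genes 7 rose and 1 fell there. Its shares did not overlap between these groups in either tissue, so score and group cannot be told apart.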

How the results depend on the processing

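Numbers count the 6 members past the threshold unless a gene is named. Where the shares of a marker list do not overlap between the groups compared, its score and the group cannot be told apart. Nothing is read from calls lost with such a score. Counts for the 3 comparisons with tendon libraries of day 12 describe libraries that chose the members, and nothing is read from them. In tendon at day 12, stimulated against unstimulated, 2 passed and 0 when only the libraries compared were fitted, and 0 to 3 when 1 library was left out (0 without unstimulated replicate 1 or 3 or stimulated replicate 1 or 3), while Rian stayed between -1.39 and -1.06 and Mirg between -1.65 and -1.27. For stimulated tendon at day 5 against naive, 2 became 1 with the muscle score, 0 with either fibroblast score, 4 in DESeq2 and 0 to 2 without 1 library. For unstimulated tendon at day 12 against naive, 1 became 0 with DESeq2's size factors, without the count filter, with each of the 3 scores and without any 1 library (0 to 0), and 2 with only the libraries compared. For stimulated tendon at day 12 against naive, 5 became 0 with either fibroblast score, 3 with only the libraries compared and 3 to 4 without 1 library (3 without naive replicate 3). In bone against naive, 0 became 1 in DESeq2 and 0 to 1 without 1 library in unstimulated libraries at day 5 (1 without naive replicate 1). There, 1 became 0 with the muscle or interstitial fibroblast score and 0 to 1 without 1 library in stimulated libraries at day 5. In unstimulated libraries at day 12, 2 became 1 with the muscle score, 0 with either fibroblast score, 1 with only the libraries compared and 1 to 3 without 1 library (1 without naive replicate 2 or 3 or unstimulated replicate 1 or 3). In stimulated libraries at day 12, 1 became 0 with each of the 3 scores or only the libraries compared, and 0 to 1 without 1 library. Between naive tissues 5 to 6 passed without 1 library. Directions turned, none of them past the threshold, for Dlk1 in tendon at day 12 (-0.19 to 0.153 over the libraries left out), for Dlk1 in tendon at day 5 (0.04 without unstimulated replicate 2, and -0.432 to 0.0837 over the libraries left out, the highest without stimulated replicate 2), for Dlk1 in stimulated tendon at day 5 against naive (0.02 to 0.177 without naive replicate 3 or stimulated replicate 1 or 2, with -0.339 the lowest) and for Dlk1 in bone at day 12 (-0.118 to -0.01 without unstimulated replicate 1 or 2 or stimulated replicate 2, -0.09 for unstimulated replicate 2, with 0.219 the highest). They also turned for Mirg in bone at day 5 (-0.0163 without the summed pair), for Meg3 (0.23), Rian (0.35) and Rtl1 (0.15) in bone at day 5 with the tendon fibroblast score, and in unstimulated bone at day 12 against naive for Meg3 (-0.0214, interstitial score) and Rian (-0.14, tendon fibroblast score). The cause was not tested. In no comparison made did all 3 same-numbered pairs have residuals that correlated above 0.1, so the numbers were not taken to pair samples. The correlations ran from -0.311 to 0.347 in tendon and from -0.399 to 0.493 in bone, all 3 were above 0.1 between unstimulated tendon at days 5 and 12 (0.105 to 0.347), which were not compared, and 13 of 30 tendon and 6 of 30 bone pairs correlated best with their own number. With the replicate block the counts were those without it, with 0 in tendon at day 5, 2 at day 12 and 2 for stimulated tendon at day 5 against naive. Dio3, with 5 to 91 counts per library in tendon and 6 to 46 in bone, and Rtl1, with 8 to 86 in tendon, are limited by depth.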
